A study of Homo sapiens with 4 samples.

Results

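Wide peaks on the placed autosomes were defined as peaks of at least 1000 bp on chromosomes 1 to 22, in 3 lists of peaks from chromatin immunoprecipitation followed by sequencing (ChIP-seq). Members were thus chosen by width and chromosome, and they number 671 of the 61551 peaks. They comprised 114 of the 2185 autosomal peaks found with a Santa Cruz antibody against YAP (5.22%), 132 of the 9346 found with a further YAP antibody (1.41%) and 425 of the 46973 found with an antibody against TEAD1 (0.905%). A further 293 peaks of at least 1 kb lay on sex chromosomes or on unplaced and random contigs and were left out. All libraries came from H69, a human cell line known as an immortalised bile duct cell (cholangiocyte) line, in which the labels name no genotype, treatment or time. Each antibody was used in 1 library, so there were no replicates, and the 4th library, made with an unrelated IgG, was not analysed here. The further YAP antibody is labelled only YAP and the TEAD1 antibody only TEAD. Avruch and TEAD1 are the names in the series' design text, and they serve here too. No markers of cell identity can be read from peak positions, so the labelled cell line was not checked.

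YAP is a coactivator at the end of the Hippo pathway. It does not bind DNA by itself and reaches chromatin mainly through TEAD factors, of which TEAD1 is one, at short sites spelled CATTCC or GGAATG on the opposite strand. A factor at 1 such site usually gives a peak not much wider than the sequenced fragments, and the labels give a sheared fragment size of about 250 bp. Reference assemblies hold sequence of another kind beside the centromeres and in tandem gene arrays. There, units such as alpha satellite, 5S ribosomal RNA genes or transfer RNA genes follow each other in many near-identical copies. In hg19 most centromeric satellite is not written out and stands as a gap, and an array can be written with fewer copies than a cell carries. A read from one copy can then be placed on another, so a peak in such a place cannot be assigned to 1 copy, and how many copies H69 cells carry was not measured. What each place holds is given from general knowledge of hg19 and not from an annotation of that build.

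The TAF11L genes of chromosome 5, relatives of a subunit gene of the general transcription factor TFIID, show how alike the copies in such an array can be. In RefSeq (GRCh38.p14), 13 TAF11L promoter windows of 300 bp gave 8 distinct sequences, and 10 of the 13 were at least 90% identical to that of TAF11L3. The remaining windows were less alike, with 87% for TAF11L14, 44.0% for TAF11L11 and 44.3% for TAF11L12. An identical twin was present for 7 of the 13, against 1.72% of all 35116 promoter windows. The 250 bases before the start of 3 copies are printed to show a typical copy, a close one and a more distant one, 5′ to 3′ on the plus strand. They lie on GRCh38.p14 at chr5:17518117-17518366, chr5:17631838-17632087 and chr5:17634210-17634459. Capitals mark bases that differ from TAF11L3, and bases of TAF11L3 missing from a copy carry no mark.
TAF11L3: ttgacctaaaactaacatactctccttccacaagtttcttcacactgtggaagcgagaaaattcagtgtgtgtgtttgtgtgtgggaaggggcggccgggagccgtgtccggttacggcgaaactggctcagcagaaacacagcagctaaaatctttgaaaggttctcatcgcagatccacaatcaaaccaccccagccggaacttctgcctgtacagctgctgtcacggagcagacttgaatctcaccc
TAF11L13: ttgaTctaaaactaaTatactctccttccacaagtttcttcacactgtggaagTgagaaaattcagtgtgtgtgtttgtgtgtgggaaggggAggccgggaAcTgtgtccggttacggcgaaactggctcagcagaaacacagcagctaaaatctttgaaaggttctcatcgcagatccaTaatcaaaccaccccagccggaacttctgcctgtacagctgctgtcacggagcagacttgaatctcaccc
TAF11L14: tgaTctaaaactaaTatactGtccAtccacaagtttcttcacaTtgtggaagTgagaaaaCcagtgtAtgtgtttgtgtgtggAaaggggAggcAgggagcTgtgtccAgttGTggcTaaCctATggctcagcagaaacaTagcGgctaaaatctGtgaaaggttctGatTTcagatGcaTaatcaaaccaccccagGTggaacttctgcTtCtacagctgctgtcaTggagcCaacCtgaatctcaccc
TAF11L13 differed from TAF11L3 by 7 bases and TAF11L14 by an edit distance of 37. The TEAD site letters CATTCC or GGAATG, searched on both strands, occurred in 1 of the 13 windows (TAF11L12) and in 14% of all windows. A match is only a match of letters, and its absence says nothing about TEAD1.

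The wide peaks were short beside the places they marked. Median width was 1696 bp for Santa Cruz, 1538.5 bp for Avruch and 1434 bp for TEAD1, and the widest peaks reached 16720, 12675 and 29894 bp. The members just inside the limit were 1003, 1002 and 1002 bp wide, and the widest peaks just outside it were 994, 999 and 998 bp. Wide peaks held 36.1% of the autosomal base pairs under Santa Cruz peaks, 13.9% under Avruch peaks and 6.34% under TEAD1 peaks. The authors' score, which has no stated unit and is compared only within a list, was higher in wide peaks. Its median was 150.8 in wide and 58.1 in narrower Santa Cruz peaks, 311.0 and 63.1 in Avruch peaks, and 350.2 and 66.7 in TEAD1 peaks. All of the 20 highest-scoring autosomal peaks of each YAP list were wide, and 14 of the 20 in the TEAD1 list. Width chose these peaks, and how far score depends on width was not measured, so these values only describe them. Chromosomes 1, 8, 5 and 19 carried 104, 87, 73 and 62 wide peaks, and chromosome 13 carried none.

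**Figure D1:**
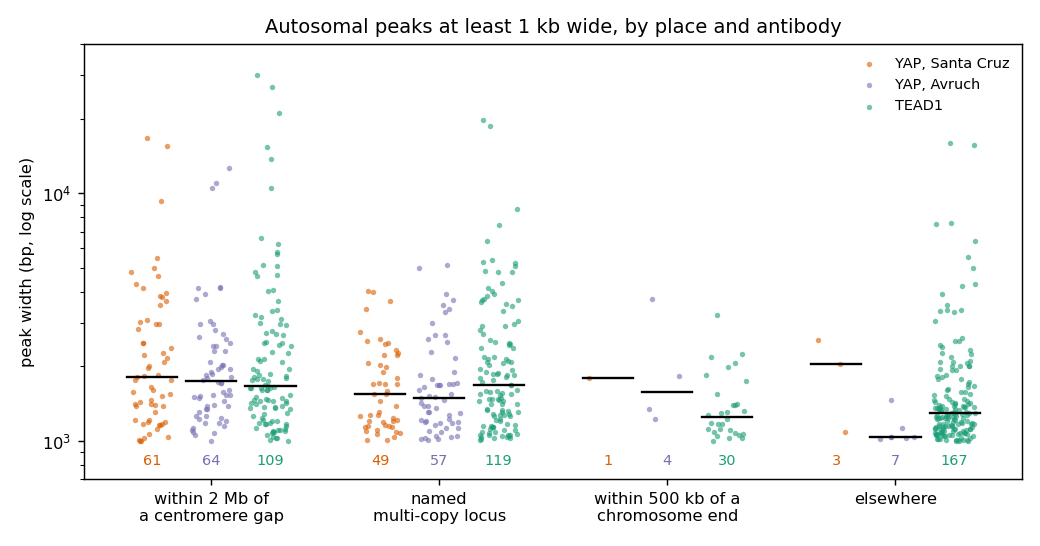
Width of each wide peak in bp (log scale), by place and antibody; points are single peaks, bars are medians and the numbers below are counts. TEAD1 had 167 wide peaks in none of the named places, against 3 for Santa Cruz and 7 for Avruch. These counts depend in part on loci named after the peaks had been seen.

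Most wide YAP peaks lay either beside a centromere or in a multi-copy locus named here, many of those loci having been named because they held wide peaks. Within 2 Mb of a centromere gap were 61 of 114 wide Santa Cruz peaks, 64 of 132 wide Avruch peaks and 109 of 425 wide TEAD1 peaks. Of the rest, 49 Santa Cruz, 57 Avruch and 119 TEAD1 peaks lay in a named multi-copy locus. These are 43% of the wide Santa Cruz peaks, against 9.95% of the narrower and 11.7% of all autosomal ones. For Avruch they are 43.2%, against 7.8% and 8.3%, and for TEAD1 28%, against 1.41% and 1.65%. Most of them, 42 of 49, 41 of 57 and 86 of 119, lay in loci added after the peaks had been seen, so these shares are set in part by that choice and support nothing. Without the added loci the counts were 7, 16 and 33. Within 500 kb of a chromosome end were 1, 4 and 30 more. In none of these places fell 3 wide Santa Cruz, 7 Avruch and 167 TEAD1 peaks. They are 2.63%, 5.3% and 39.3% of each list's wide peaks, against 76.1%, 82.8% and 94.0% of the narrower ones. Without the added loci these last counts would be higher by up to 42, 41 and 86, so they too are set in part by that choice. Distance was taken from the gap alone. Beyond 2 Mb from it, but within 2 Mb of the peak-free stretch that holds it, lay 0, 2 and 12 wide peaks. Some of the 167 TEAD1 peaks were among them. The plot of width by place shows that the widest peaks of all 3 lists stood beside centromeres.

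Wide peaks lay beside a centromere more often than narrower peaks of the same list. The share within 2 Mb of a gap was 53.5% for wide Santa Cruz peaks (Wilson 95% interval 44.4 to 62.4), against 10.6% of the narrower ones (9.32 to 12) and 12.8% of all autosomal peaks. For Avruch it was 48.5% (40.1 to 56.9), against 7.36% of the narrower ones (6.84 to 7.91) and 7.94% of all. For TEAD1 it was 25.6% (21.7 to 30.0), against 2.77% of the narrower ones and 2.98% of all. These intervals cover counting error only, and neighbouring wide peaks are often pieces of 1 stretch.

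At the very edge of the gaps, wide YAP peaks outnumbered wide TEAD1 peaks. Within 100 kb of a gap lay 38 wide Santa Cruz peaks (33.3% of that list's wide peaks, 25.3 to 42.4) and 41 wide Avruch peaks (31.1%, 23.8 to 39.4), but 3 wide TEAD1 peaks (0.706%, 0.24 to 2.05). The 3 TEAD1 peaks were long, of 26847, 20981 and 5112 bp, so the lists differed less in base pairs than in counts. Wide peaks there covered 126464 bp for Santa Cruz, 102933 bp for Avruch and 52940 bp for TEAD1, which is 48.2%, 37.8% and 5.42% of each list's wide base pairs. TEAD1 was also lowest by peaks of any width, with 77 Santa Cruz, 163 Avruch and 21 TEAD1 peaks, although the TEAD1 list was the longest. Those were 3.52%, 1.74% and 0.0447% of each list's autosomal peaks (2.83 to 4.38, 1.5 to 2.03 and 0.0292 to 0.0683). From 100 to 500 kb the wide peaks numbered 12, 12 and 60, out of 114, 132 and 425. They held 8.68%, 10.5% and 13.5% of each list's wide base pairs. By peaks of any width the TEAD1 share was again the lowest, with 4.3%, 2.9% and 0.781% of each list's autosomal peaks. Of the 38 wide Santa Cruz peaks within 100 kb, 35 overlapped an Avruch peak and 8 a TEAD1 peak. Of the 41 Avruch peaks there, 37 overlapped a Santa Cruz peak and 8 a TEAD1 peak. Without replicates the difference between the antibodies has no test over experiments, and read depth is unknown.

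**Figure D2:**
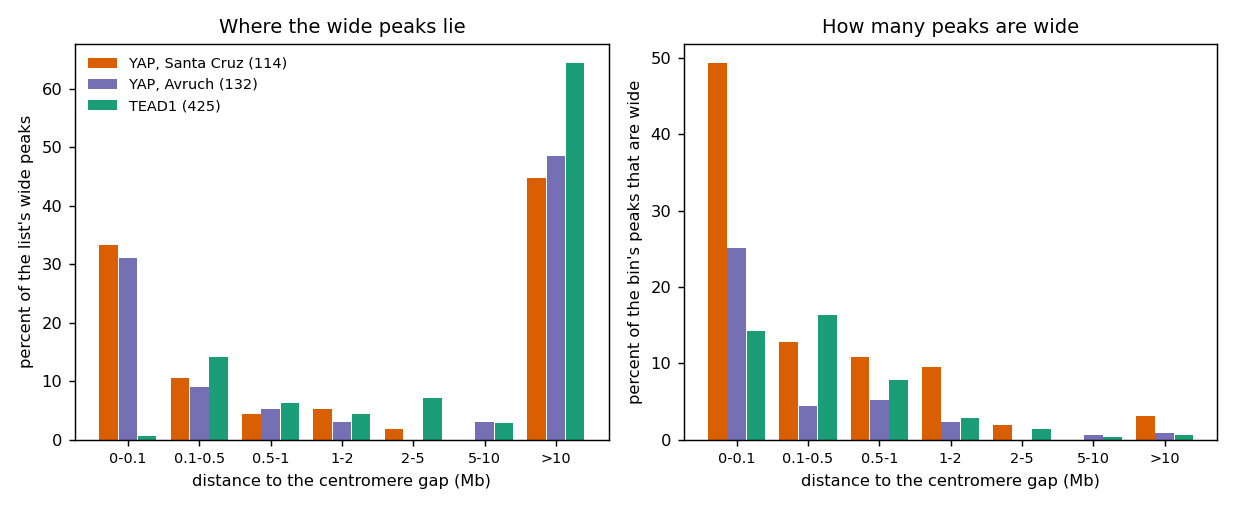
Wide peaks by distance to the nearest centromere gap (Mb, uneven steps), as percent of each list's wide peaks (left) and as percent of all peaks at that distance that are wide (right). In the nearest 0.1 Mb the left bars reach 33.3% and 31.1% for the YAP lists and 0.706% for TEAD1.

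In 12 loci, wide peaks of both YAP antibodies stood with no TEAD1 peak of any width. Of these, 11 lay within 2 Mb of a gap and 10 within 200 kb, on arms 1p, 4q, 5q, 8p, 8q, 11p, 17p, 18q and 19q. On chromosome 17, the highest-scoring wide Santa Cruz peak (22247035 to 22262560 in hg19, 15526 bp, score 1753) ended 446 bp from the gap. The Avruch peak beneath it (22247555 to 22260229) was 12675 bp wide and scored 1466. Peaks of the antibodies covered 99.7% and 98.0% of this stretch of 18.1 kb, and TEAD1 covered none of it. On the other side of the same gap the order was turned. A TEAD1 peak of 5112 bp (25263011 to 25268122, score 1417) began 4 bp from the gap, with no Santa Cruz peak and 1 narrower Avruch peak over 17.4% of it. Each stretch, here and below, runs from the first to the last base of wide peaks of any list joined over at most 50 kb. Coverage by the list that sets these bounds is therefore raised by construction, and percentages are not an even comparison of antibodies.

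Chromosome 8 showed YAP on both sides of its gap. The p arm stretch (43793103 to 43838892) held 4 wide Santa Cruz and 9 wide Avruch peaks, the widest 9309 and 2802 bp. The q arm stretch (46839503 to 46856664) held 2 and 5, which with narrower peaks covered 48.3% and 86.9% of it. On 5q (49406257 to 49441196) Santa Cruz gave 7 wide peaks and Avruch 2. On 19q (27731775 to 27740628) they gave 2 and 4, covering 84.0% and 94.8%. The remaining locus was the exception in position, 15.6 Mb from the gap on 4q (68264256 to 68266812). There 1 Santa Cruz peak spanned all 2557 bp and 2 Avruch peaks spanned 84.3%. The nearest edges of several stretches (1p, 6p and 19q) lay 49989 to 49995 bp from the gap as entered here, and whether hg19 holds further unsequenced bases at those edges was not checked.

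**Figure D3:**
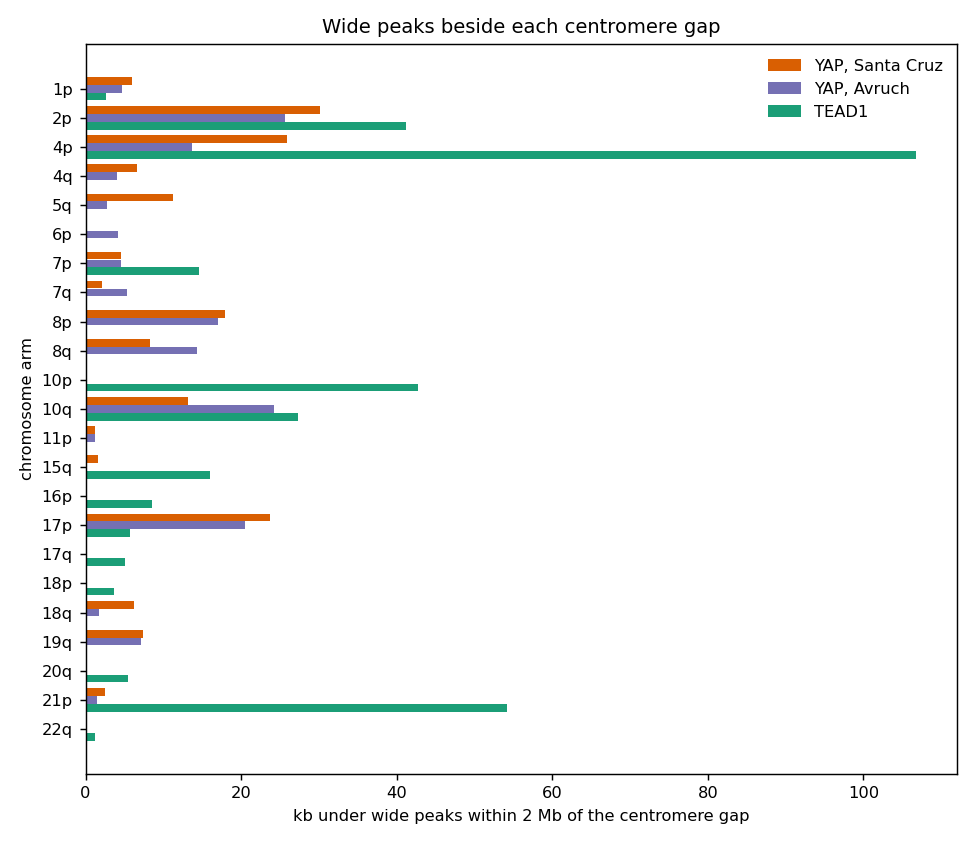
Total kb under wide peaks within 2 Mb of the centromere gap, for the 23 chromosome arms with any, by antibody. TEAD1 stands alone on 10p and far above YAP on 21p, and YAP stands alone on 9 arms such as 8p and 8q.

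TEAD1 in turn had arms of its own. Of 44 arms, 23 had a wide peak within 2 Mb of the gap, of which 9 had wide YAP peaks alone, 6 wide TEAD1 peaks alone and 8 both. Several of the 44 had no peak of any width in that range. The p arms of chromosomes 13, 14, 15 and 22 carried no peak of any list. On 1q, 9q and 16q the nearest peak lay 8063179 bp or more from the gap. On 10p, 21 wide TEAD1 peaks stood in that range and no wide YAP peak. The main stretch there (39077782 to 39154084) had 41 TEAD1 peaks over 66.4% of its length, beside 1 Santa Cruz peak and no Avruch peak. On 21p, 30 wide TEAD1 peaks stood beside 2 of Santa Cruz and 1 of Avruch, and in the stretch from 10775544 to 10860340, TEAD1 covered 63.7%, Santa Cruz 0.642% and Avruch 0.928%. The plot of wide base pairs by arm shows these contrasts.

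Where all 3 lists were wide beside a gap, the same stretch was covered to unequal extents. On 2p, at the gap itself (92290335 to 92326208), peaks covered 73.7% in Santa Cruz, 69.3% in Avruch and 58.5% in TEAD1. The widest there were 16720, 10970 and 20981 bp. The Avruch peak scored 3100, the highest score of an autosomal peak in that list and reached by no other. In the TEAD1 list 19 autosomal peaks scored 3100 or more, and the 14 wide ones among them were tied at 3100. On 4p, TEAD1 gave peaks of 29894, 15325 and 26847 bp, the last ending where the gap begins. The other two lay in a stretch (49093232 to 49158799) covered to 99.8% by TEAD1, 23.3% by Avruch and 12.6% by Santa Cruz. In the stretch that starts at 49633271 and ends where the gap begins, TEAD1 covered 100%, Santa Cruz 69.2% and Avruch 37.4%. That stretch is the TEAD1 peak of 26847 bp itself, so its TEAD1 coverage was fixed in advance. On 10q (42596649 to 42600687), 1 peak of each list covered 97.9%, 97.0% and 100% of 4039 bp. The 7p stretch 1.61 Mb from the gap (56434397 to 56442588) gave high scores in every list, 1403, 1413 and 3100.

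Further loci beside a gap were also wide in all lists. On 10q, the stretch from 42380026 to 42400809 held an Avruch peak of 10483 bp (score 2287) and a TEAD1 peak of 10516 bp (score 323.2), each over more than 50% of it, while 1 Santa Cruz peak of 1162 bp covered 5.59%. Its neighbour from 42526999 to 42545401 went the other way for TEAD1, with 5 wide Santa Cruz, 5 wide Avruch and 1 wide TEAD1 peak, covering 54.7%, 75.7% and 25.1%. On 17p, a TEAD1 peak of 5769 bp lay 355125 bp from the gap (21902111 to 21907881), with 2 wide peaks of each YAP list over 98.0% and 73.6% of the stretch. On 2p (90475342 to 90486285), a TEAD1 peak of 6610 bp scored 3100, and 1 wide peak of each YAP list stood there, of 2005 and 1600 bp. On 21p (9698024 to 9700807), peaks of 1436, 1451 and 2784 bp overlapped. TEAD1 scores of 3100 were also reached on 15q at 20305495 to 20311754 (6260 bp) and 21312713 to 21318385 (5673 bp). YAP peaks in these stretches of 15q were all under 1 kb and covered 22.1% to 31.5%. On 1p (121478601 to 121485445), an Avruch peak of 1396 bp scored 1354, the sixth highest of the wide Avruch peaks, and no TEAD1 peak was found.

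Among the arrays of genes, the REXO1L array on 8q21 held the most wide peaks. REXO1L genes resemble an exonuclease gene, and RefSeq (GRCh38.p14) lists 11 of them on chromosome 8. Wide peaks numbered 20 for Santa Cruz, 25 for Avruch and 16 for TEAD1, over 36161, 47562 and 55482 bp. The larger part of the array (86726438 to 86840968, 115 kb) was covered to 38.5%, 70.3% and 48.9%. Over the whole array, the 11 TEAD1 peaks of at least 2.5 kb followed each other at a median of 12.3 kb from start to start (quartiles 11.8 and 16.1, steps of 50 kb or more left out). The median depends on that limit and on the list. It was 8.46 kb for all 16 wide TEAD1 peaks, and 27.5 kb for the 5 Avruch peaks of at least 2.5 kb. For all wide Santa Cruz and Avruch peaks it was 6.57 and 4.12 kb. The highest score in each list was 836.5, 1513 and 2802.

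The TAF11L array on 5p15 held 10, 9 and 12 wide peaks. The promoters printed above are placed on GRCh38.p14, and whether they lie under these hg19 peaks was not checked. The wide peaks fell into stretches at 17517598 to 17530453 and 17580640 to 17599634. The first was covered to 79.5% by Santa Cruz, 98.4% by Avruch and 92.0% by TEAD1. The other was covered to 63.7%, 88.3% and 85.6%. Wide TEAD1 peaks followed each other at a median of 2.66 kb, and wide Santa Cruz and Avruch peaks at 2.87 and 2.71 kb.

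At 2 arrays read by RNA polymerase III, TEAD1 peaks ran almost without a break over the stretch of wide peaks. At the 5S ribosomal RNA gene array on 1q42 (228744016 to 228782526), there were 2 TEAD1 peaks of 18734 and 19775 bp, both at a score of 3100. Their outer ends are the bounds of the stretch, so its full TEAD1 coverage says only that they lie side by side. Avruch cut the same stretch into 46 peaks, 12 of them wide, and Santa Cruz into 36, 5 of them wide. At the transfer RNA gene array on 1q23 (161410307 to 161442511) wide peaks numbered 6, 4 and 8. TEAD1 covered 95% of it, Avruch 60.9% and Santa Cruz 50.7%. From start to start, the 8 wide TEAD1 peaks were a median of 5.27 kb apart, and the 4 of at least 2.5 kb 7.39 kb. Wide Santa Cruz and Avruch peaks were a median of 3.75 and 7.64 kb apart. RefSeq lists 17 RNA5S genes on chromosome 1 and 27 transfer RNA genes between CFAP126 and FCGR2A. Among the latter, TRD-GTC2 and TRL-CAG1 have 5 copies each.

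SNAR genes encode small noncoding RNAs of the NF90-associated family, with 26 entries on chromosome 19. Their arrays on 19q13 were wide in TEAD1 alone, with 8 and 13 wide peaks. Avruch gave 49 and 46 peaks in them and Santa Cruz 6 and 9, all under 1 kb. In the TTC34 region of 1p36 (2583393 to 2630362) wide peaks numbered 5, 2 and 14, and TEAD1 covered 96.4% of it against 42.6% and 32.2%. At the D4Z4 repeats, whose units hold DUX4 copies, the end of 4q had 1, 1 and 5 wide peaks and the end of 10q 0, 1 and 8. The ELOA3 region on 18q21 had 1, 0 and 5, and the duplicated SMN region on 5q13 had 0, 0 and 6. The RNU1 and NBPF1 region on 1p36, the NBPF region on 1q21 and MUC12 on 7q22 had wide peaks of TEAD1 alone, 6, 7 and 3 in number. The ANKRD30BL and MIR663B locus on 2q21 had 2 of TEAD1 alone, and the RNU2 array on 17q21 had 1, 0 and 2. HRNR on 1q21 had 0, 1 and 1, and the satellite segment of 16q11 had 0, 2 and 1.

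An acrocentric segment on 21p known to carry MIR3648 (9825406 to 9827674) had 1 wide Santa Cruz peak of 1008 bp and 2 wide TEAD1 peaks, the higher at a score of 1770. Avruch peaks covered 85.0% of it without reaching 1 kb. The mature miRNA is shown to identify the gene, on GRCh38.p14 at chr21:8987026-8987046, plus strand, with its seed (bases 2 to 8) in capitals.
hsa-miR-3648: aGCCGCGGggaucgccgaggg

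Other listed loci carried peaks but no wide ones. The USP17 array on 4p16, deubiquitinase genes in tandem, held 106 Avruch, 9 Santa Cruz and 9 TEAD1 peaks. The defensin and USP17 region on 8p23, the histone cluster on 6p22, the protocadherin cluster on 5q31, MIR663A on 20p11 and the mitochondrial-like segment of 1p36 had no wide peak either.

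**Figure D4:**
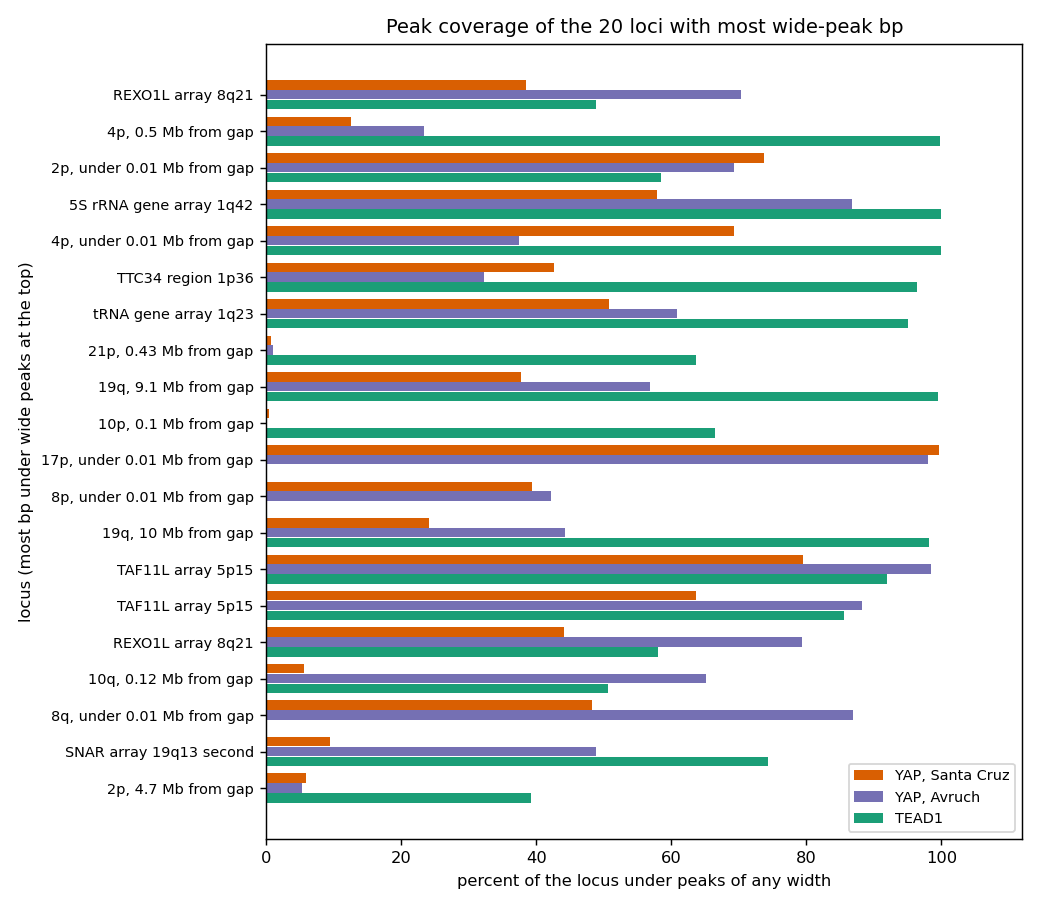
Percent of each of the 20 loci with most wide-peak base pairs that lay under peaks of any width, by antibody; loci are ordered by base pairs under wide peaks, most at the top. TEAD1 covers 100% of the 5S stretch and 0% of the 17p stretch, where the YAP lists cover 99.7% and 98.0%. The bounds of each locus are the outer ends of its wide peaks, so coverage by the list that sets them is raised by construction.

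Joining wide peaks of all lists over gaps of at most 50 kb gave 213 loci. The 10 largest held 39.7% of the 1512538 bp under wide peaks. All 3 lists were wide in 19 loci, which held 233 of the 671 wide peaks and 45.4% of their base pairs. 10 of these lay within 2 Mb of a gap. A further 26 loci were wide in a pair of lists and 168 in 1 list, of which 164 were wide in TEAD1 alone. Of those 164, 87 had no YAP peak of any width. TEAD1 supplied 425 of the 671 wide peaks. Counted by peak and not by locus, 1.02% of all autosomal TEAD1 peaks overlapped Santa Cruz and 2.98% Avruch. A TEAD1 peak without a YAP peak was thus the usual case in that list.

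Wide peaks of the YAP antibodies mostly coincided. Of wide Santa Cruz peaks, 94.7% overlapped an Avruch peak (108 of 114, 89.0 to 97.6), against 23.8% of all autosomal Santa Cruz peaks. Of wide Avruch peaks, 81.8% overlapped a Santa Cruz peak (108 of 132), against 6.37% of all. Overlap with TEAD1 was 64.0% for wide Santa Cruz peaks (73 of 114, 54.9 to 72.3) and 60.6% for wide Avruch peaks (80 of 132), against 30.0% and 18.9% of all. Seen from TEAD1, 38.1% of wide peaks overlapped Santa Cruz (162 of 425) and 51.1% Avruch (217 of 425), against 1.02% and 2.98% of all. Wide peaks offer more length to overlap, and how much this adds was not tested. Counting only peaks whose midpoint was covered gave 87.7% of wide and 16.7% of narrower Santa Cruz peaks in Avruch, and 61.4% and 26.8% in TEAD1. For Avruch it gave 74.2% and 4.51% in Santa Cruz, and 58.3% and 17.1% in TEAD1. For wide TEAD1 peaks the midpoint rule lowered the shares, to 20% in Santa Cruz (0.43% of narrower ones) and 27.1% in Avruch (1.7%). Requiring 50% of both peaks gave 61.4% of wide Santa Cruz peaks in Avruch and 24.6% in TEAD1, and 8.71% of wide TEAD1 peaks in Santa Cruz and 9.18% in Avruch.

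**Figure D5:**
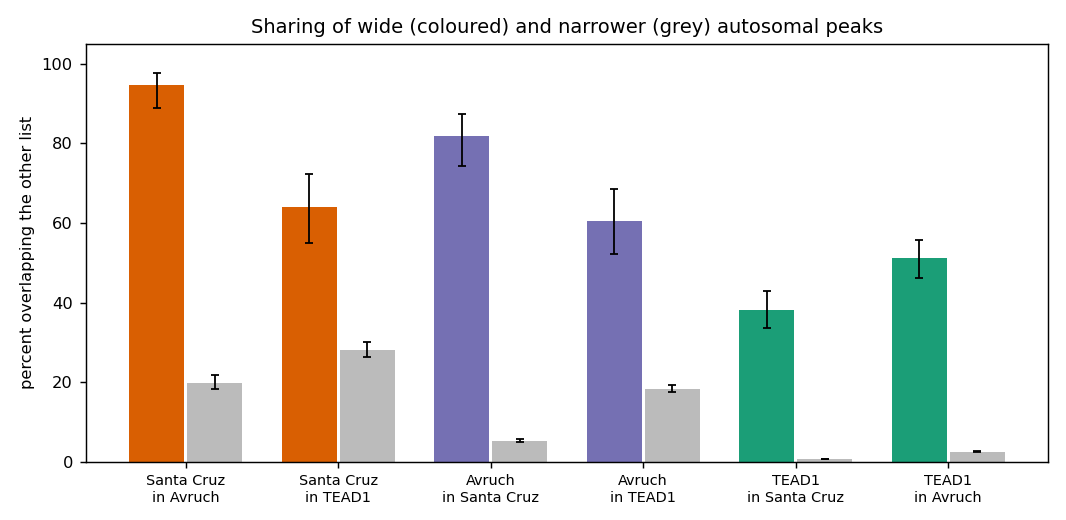
Percent of wide (coloured) and narrower (grey) autosomal peaks of each list that overlapped a peak of another list by at least 1 bp; bars show Wilson 95% intervals, for counting error only. Wide Santa Cruz peaks overlapped Avruch peaks in 94.7% of cases and wide TEAD1 peaks overlapped Santa Cruz peaks in 38.1%.

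Overlap with both other lists at once differed by place. In the named multi-copy loci it was 93.9% of wide Santa Cruz peaks (46 of 49, 83.5 to 97.9), 84.2% of Avruch peaks (48 of 57) and 51.3% of TEAD1 peaks (61 of 119). Beside the centromeres it was 34.4% (21 of 61, 23.7 to 47.0), 26.6% (17 of 64) and 25.7% (28 of 109). Narrower peaks had the same order of places, with 55.3%, 18.8% and 6.08% in the named loci and 19.2%, 9.0% and 1.32% beside the centromeres. In the loci not added after the peaks had been seen, the count was 6 of 7 for Santa Cruz, 12 of 16 for Avruch and 5 of 33 for TEAD1. The TEAD1 share was 15.2% there and 65.1% (56 of 86) in the added loci, so for TEAD1 the order against the centromeres was turned without them. Overlap with at least 1 other list differed less by place for YAP. It was 95.1% beside the centromeres and 100% in the named loci for Santa Cruz, and 87.5% and 94.7% for Avruch. For TEAD1 it was 35.8% and 83.2%. Wide peaks that overlapped neither other list numbered 3, 13 and 188, or 2.63%, 9.85% and 44.2% of each list's wide peaks. Of all autosomal TEAD1 peaks only 1.02% overlapped Santa Cruz and 2.98% Avruch, so most of that list overlapped neither. Of all Santa Cruz peaks 23.8% overlapped Avruch and 30.0% TEAD1. Of all Avruch peaks 6.37% overlapped Santa Cruz and 18.9% TEAD1.

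The 167 wide TEAD1 peaks in none of the named places included 89 that were the only wide TEAD1 peak of their locus. These had a median width of 1221 bp, and 75 of them were under 1500 bp. Their scores ran from 52.2 to 3100 around a median of 352, and 30 of the 89 overlapped a YAP peak. The 50 in loci of 3 or more wide TEAD1 peaks were wider, with a median of 1786 bp, and 41 of the 50 overlapped a YAP peak. Those 50 lay in 8 loci. The fullest were 2 stretches of 19q, at 36759973 to 36800864 and at 37759493 to 37794678. TEAD1 covered 99.5% and 98.2% of them with 9 and 12 wide peaks, of up to 15887 and 7483 bp. Avruch placed 55 and 51 peaks there, and 2 of those in the first were wide. Santa Cruz placed 39 and 23, none wide. On 2p (87579312 to 87658662) 10 wide TEAD1 peaks covered, with narrower ones, 39.2%. A single TEAD1 peak on 5p (1325980 to 1329306) scored 3100 over 3327 bp, with 2 narrower Avruch peaks in it. One on 4p (1317556 to 1318909, score 3100) and one on chromosome 1 (94244893 to 94245936, score 2728) overlapped no YAP peak.

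The wide YAP peaks outside the named places were few enough to give in full. Santa Cruz had 1 on 16p (33237465 to 33239512, score 259), 1 on 4q (68264256 to 68266812, described above) and 1 on 2p (89878914 to 89880004, score 61.7). The 16p peak lay inside a TEAD1 peak of 4212 bp at a score of 3100 (33237125 to 33241336), 2.09 Mb from the gap and so just past the limit used for centromeres. The Avruch peaks were the 2 at the 4q locus, the 2 in the 19q stretch, 2 on 5p (34178583 to 34179622 and 34180950 to 34181990) and 1 on 1q (248571366 to 248572387). Their widths ran from 1022 to 1470 bp and their scores from 96.1 to 341.5. The 1q peak overlapped a wide TEAD1 peak of 1016 bp and no Santa Cruz peak.

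Chromosome ends held few wide YAP peaks. The first bases of 5p written in hg19 (10002 to 11850) carried 1 wide peak of each list, of 1795, 1823 and 1848 bp. The end of 2q (242948519 to 242952881) had 2 wide TEAD1 peaks, the higher at a score of 1750, and 1 wide Avruch peak of 1223 bp. Near the start of 18p (106374 to 111480), 2 wide Avruch peaks, the larger 3758 bp wide, stood with no peak of the other lists.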

How the data were processed

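ChIP-seq of H69 cells gave 3 deposited peak lists, 1 per antibody. Reads were aligned with Bowtie2 to hg19, per the submitters' processing notes. MACS is named in the deposited peak names. Its version, settings, duplicate handling and control were not given in the sources used here. Column 5, the score of the deposited lists, is the authors' value, with no stated unit, and was used only within a list. Peak starts and ends, deposited as other numbers counted from 0, are given from 1. Peaks were called per library, and read depth is not given.

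Positions were processed with python 3.11.15, pandas 2.3.3 and numpy 2.4.6, and the overlap code was tested on simulated peaks against bedtools 2.31.1. Sharing means an overlap of at least 1 bp. No test was made, because each antibody has 1 library. Centromere gaps, chromosome lengths and locus bounds of hg19 were entered by hand from general knowledge, as no hg19 annotation was used here. As a check, 5 peaks reached into 3 of the 22 gaps, by at most 37 bp. Wide peaks beside a gap were counted there first, then in named loci, then at chromosome ends. RefSeq tables (GRCh38.p14) gave names, copy numbers and sequences only. Named regions were the 10 highest-scoring wide peaks per list, the 10 loci with most wide base pairs, loci wide in all lists, listed multi-copy loci, and up to 10 others per list by score. The wide peaks, the loci and these rules were chosen with earlier results of these data known. The arrays of tRNA, REXO1L, TAF11L, SNAR and ELOA3 genes, TTC34, MUC12, HRNR and SMN were added after the peaks had been seen. From these sets, most are described. Alternatives varied the width limit, the distance to the gap, the overlap, the score limit and the joining distance.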

Additional observations from a re-analysis of the deposited data

How the results depend on the processing

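Of 37 alternatives, 17 moved a value by less than its counting interval or by under 1.5 times for a count, and 20 moved it further. With a limit of 500 bp, wide peaks numbered 264 for Santa Cruz, 442 for Avruch and 3744 for TEAD1, and with 2000 bp 44, 38 and 124. Joining peaks over gaps of at most 1 kb first gave 249 for Avruch and 2285 for TEAD1. The share near a centromere rose with a limit of 2000 bp, to 60.5% for Avruch and 33.1% for TEAD1. For TEAD1 it was 21.2% within 1 Mb and 32.7% within 5 Mb. An overlap of 50% of both peaks gave 61.4% for Santa Cruz in Avruch, 24.6% for Santa Cruz in TEAD1, 47.7% for Avruch in Santa Cruz, 22.7% for Avruch in TEAD1, 8.71% for TEAD1 in Santa Cruz and 9.18% for TEAD1 in Avruch. With the higher-scoring 50% of each list, TEAD1 overlapped Santa Cruz in 33.3% and Avruch in 42.6%. The cause was not tested. The numbers of loci, 213 in all and 19 wide in all lists, ranged over 197 to 233 and 17 to 20 with gaps of at most 100 and 10 kb. Distances of 2 Mb to the peak-free stretch that holds the gap, an alternative chosen after seeing the data, gave 53.5%, 50% and 28.5%. No paired analysis was possible because each antibody has 1 library. Read depth is unknown, so fewer peaks in a list do not show less binding.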
